A study of Mus musculus with 32 samples.

Results

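The small nucleolar RNA (snoRNA) and small Cajal body RNA (scaRNA) genes of 4 murine Ba/F3 cell lines were followed on 32 Affymetrix Mouse Gene ST 1.0 arrays. Members were all probe sets to which the platform annotation gives a single gene symbol starting with Snora, Snord or Scarna. This gave 60 probe sets for 54 genes, out of 23410 probe sets with a symbol and 35556 in all. Of these, 23 probe sets belonged to 20 Snora genes, 33 to 31 Snord genes and 4 to 3 Scarna genes. Genes with 2 probe sets numbered 6, and in 3 of them (Scarna17, Snora30 and Snord118) both probe sets held the same values on every array, so that 57 distinct sets of values remained. The 2 probe sets of Snora3, and those of Snord58b, also read nearly alike on every array and do not bear each other out. No filter on low values was applied, and all 60 probe sets were tested. A further 41 probe sets carry such a symbol among several others and were not counted as members.

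Each line had 8 arrays. There were 3 receptor lines. Ba/F3-SyCyR(IL-23R) carried a synthetic homodimeric receptor, Ba/F3-SyCyR(IL-23/2A) a synthetic heterodimeric receptor, and Ba/F3-IL-12Rβ1-IL-23R the natural one. Ba/F3-gp130 was the line from which these were made. Ba/F3 is an interleukin-3-dependent pro-B cell line, and all 4 lines carry the transduced human gp130 receptor, which lets them grow on Hyper-IL-6. SyCyR(IL-23R) cells express the transmembrane and intracellular IL-23R fused to a GFP nanobody, SyCyR(IL-23/2A) cells carry nanobody fusions of IL-12Rβ1 and IL-23R joined by a 2A peptide, and IL-12Rβ1-IL-23R cells carry the murine wild type chains. The receptors were introduced by retroviral transduction, and each line was selected on its own and kept in culture for several weeks. Before lysis, cells were held without serum for 3 h and exposed for 1 h to 100 ng/ml of ligand or to control supernatant. Array titles carry a letter for the line and the numbers 13 to 20, and which ligand an array received is not in the labels. A receptor line therefore covers arrays of different stimulation. The methods compare cells with and without ligand only in the receptor lines, and what the Ba/F3-gp130 arrays received is not given. Odd and even numbers are given below as numbers only. Within a line the arrays correlated at 0.9883 or more, and array medians lay between 6.94 and 7.18 on the log2 scale. Of 14 measured pro-B cell markers, 4 exceeded 7.04, the median over the mean levels of all probe sets, among them Cd79a and Ptprc, while Pax5, Ebf1, Rag1, Rag2 and Vpreb1 lay below it. Among the markers of other cells, 3 of 7 for mast cells and basophils, 3 of 8 for granulocytes and macrophages and 1 of 5 for T cells lay above that median.

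SnoRNAs are short stable RNAs of the nucleolus that guide the chemical modification of ribosomal RNA. Box C/D RNAs (Snord) direct methylation of the ribose through fibrillarin, and box H/ACA RNAs (Snora) direct the conversion of uridine to pseudouridine through dyskerin. A few of both classes act instead in cutting the ribosomal RNA precursor. ScaRNAs carry the same boxes but stay in Cajal bodies and guide the modification of spliceosomal RNAs. In mammals most of these RNAs are cut out of introns of host genes, many of which encode ribosomal proteins or are non-coding. In the RefSeq annotation, 53 of the 54 member genes lay within the span of another gene, which was protein-coding for 40 and a long non-coding RNA for 13. Where several genes contained a member, the shortest one with a probe set was taken as host. A host with several probe sets was read through the one with the highest mean. The strand of the host was not checked. Snord118, the exception, is transcribed from a promoter of its own. Probes for an intronic RNA do not tell the mature RNA from unspliced host RNA, and an array value does not tell fewer cells with an RNA from less of it per cell.

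Some of the members named below share a host gene, and the start regions of 3 such hosts are shown. Snhg12 is the host of Snora44 and Snora16a, Snhg3 that of Snora73a and Snora73b, and Rack1 that of Snord95 and Snord96a. The stretches run from 100 bases before to 20 bases after the annotated start and come from RefSeq promoter windows of assembly GRCm38.p6. They lie at chr4:132308578-132308697 on the plus strand, chr4:132353667-132353786 on the minus strand and chr11:48800260-48800379 on the plus strand. Capitals mark a run of C followed by 4 or more bases that are C or T, the pattern of a terminal oligopyrimidine tract, searched on the sense strand within 10 bases of the start.
Snhg12: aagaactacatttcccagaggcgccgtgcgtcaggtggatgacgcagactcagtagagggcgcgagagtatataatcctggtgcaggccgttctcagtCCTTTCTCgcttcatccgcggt
Snhg3: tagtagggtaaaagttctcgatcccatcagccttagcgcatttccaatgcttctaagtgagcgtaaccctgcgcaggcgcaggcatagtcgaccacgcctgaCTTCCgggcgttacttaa
Rack1: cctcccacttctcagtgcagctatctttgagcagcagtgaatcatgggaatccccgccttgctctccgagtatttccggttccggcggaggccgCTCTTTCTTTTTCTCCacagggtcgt
The run measured 8 bases in Snhg12, 5 in Snhg3 and 16 in Rack1. Windows were found for 33 of 43 host genes, and 18 of their 35 windows (51.4%) held such a run, against 34.9% of the 32851 windows of all genes. The palindrome CACGTG, which reads the same on both strands, was present in 6 host windows (17.1%) and in 7.15% of all windows, and in none of the 3 printed hosts.

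Members moved together from array to array. As a set they were lowest on 3 arrays: number 20 of SyCyR(IL-23R) and numbers 19 and 20 of IL-12Rβ1-IL-23R. The median over the 60 members, taken as the deviation from the mean of the line, was -0.36 on the first of these arrays and -0.31 and -0.21 on the other two. On the remaining arrays it lay between -0.13, on number 15 of SyCyR(IL-23/2A), and 0.17. The same median over all probe sets with a symbol stayed between -0.02 and 0.03 on every array. On number 15 of SyCyR(IL-23/2A), 11 of 60 members lay above the line mean, as on number 20 of IL-12Rβ1-IL-23R. Number 15 was the lowest array of SyCyR(IL-23/2A) for 20 members (33.3%), against 19.3% of all probe sets. On number 20 of SyCyR(IL-23R), 37 members (61.7%) lay below the other 7 arrays of the line, against 14.4% of all probe sets. On numbers 19 and 20 of IL-12Rβ1-IL-23R, 40 (66.7%) and 37 (61.7%) lay below the 6 arrays numbered 13 to 18, against 25.5% and 12.0% of all probe sets. These arrays were singled out after their values had been seen, so these counts describe them and test nothing. The calls and counts of the line comparisons that involve these 2 lines are therefore given below with and without the 3 arrays. Because the arrays were left out for their low member values, calls and p-values of those fits are descriptions too. For a member with a deficit there, such as Snora44, leaving them out raises its line mean by construction.

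**Figure D1:**
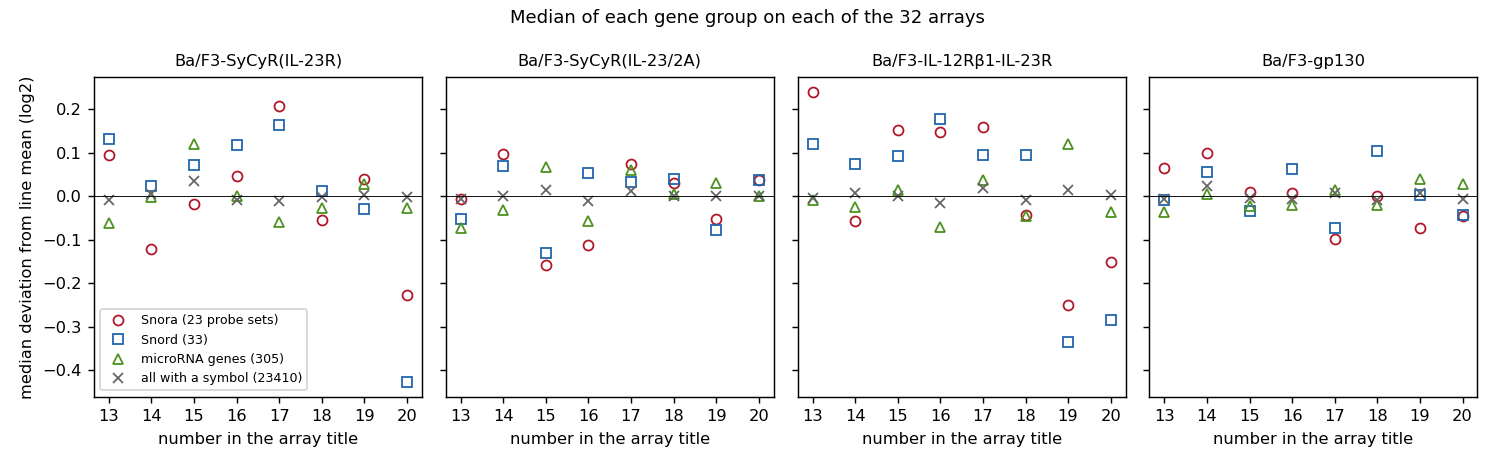
Median deviation from the line mean (log2 RMA, vertical axis) of Snora, Snord, microRNA and all annotated probe sets on each array, by the number in the array title (horizontal axis) and by line. Snora and Snord medians are both low on number 20 of SyCyR(IL-23R) and on numbers 19 and 20 of IL-12Rβ1-IL-23R, while the median of all probe sets with a symbol stays between -0.02 and 0.03.

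Box C/D RNAs were the lower class on these arrays. The median of the Snord members was -0.43 on number 20 of SyCyR(IL-23R), against -0.23 for Snora. It was -0.34 and -0.29 on numbers 19 and 20 of IL-12Rβ1-IL-23R, against -0.25 and -0.15 for Snora. Across all 32 arrays the Snora and Snord medians correlated at r = 0.78, a description over arrays that share lines. On number 20 of SyCyR(IL-23R) and number 19 of IL-12Rβ1-IL-23R the largest single deficit belonged to Snora44, an H/ACA guide from an intron of Snhg12, and on number 20 of IL-12Rβ1-IL-23R to Snord58b (-1.06 and -1.02 in its 2 probe sets). Snora44 read 10.31 on number 20 of SyCyR(IL-23R), against a median of 11.87 on the other arrays of that line. It read 10.07 and 10.68 on numbers 19 and 20 of IL-12Rβ1-IL-23R, against a median of 11.62 on numbers 13 to 18. Snord15a (host Rps3) and Snord16a (host Rpl4), both box C/D guides, were 0.71 to 0.95 below the same medians on all 3 arrays. Snora23 did not share the deficit and lay 0.18 above its median on number 20 of SyCyR(IL-23R) and 0.22 above it on number 19 of IL-12Rβ1-IL-23R.

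Several other short RNAs that are not microRNAs were low on the same arrays. Of 12 measured RNAs in a list of abundant small RNAs, 9 lay below the other arrays on number 20 of SyCyR(IL-23R). On numbers 19 and 20 of IL-12Rβ1-IL-23R 9 and 6 did. The shares of all probe sets were 14.4%, 25.5% and 12.0% on these arrays. The Y RNA Rny3, which binds the Ro protein, lay 0.62 below its median on number 20 of SyCyR(IL-23R) and 0.62 and 0.56 below it on numbers 19 and 20 of IL-12Rβ1-IL-23R. Rny1, the other Y RNA, lay 0.74 below on number 20 of SyCyR(IL-23R) and 0.37 and 0.52 below on the other two. Rn7sk, an RNA that restrains transcription elongation, was within 0.06 of its median on all 3, though below the other arrays on both of IL-12Rβ1-IL-23R. Rpph1, the RNA of ribonuclease P, was below all other arrays on the 3, by 0.33 in SyCyR(IL-23R) and by 0.14 and 0.20 in IL-12Rβ1-IL-23R. Some of the list went the other way. Rnu7 lay 0.31 and 0.55 above its median on numbers 19 and 20 of IL-12Rβ1-IL-23R. On number 20 of SyCyR(IL-23R) Rnu7 lay 0.86 below its median. Rnu6 lay 0.91 above its median on number 20 of IL-12Rβ1-IL-23R. It lay 0.19 below on number 19 of that line and 0.28 below on number 20 of SyCyR(IL-23R). Mean levels of Rnu7 and Rnu6 were only 5.17 and 3.66, below the median of 7.04 over all probe sets. Their rises therefore do not show that well-detected short RNAs escaped the deficit. Terc was below all other arrays on none of the 3. The medians of 305 microRNA probe sets were -0.03 on number 20 of SyCyR(IL-23R) and 0.12 and -0.04 on numbers 19 and 20 of IL-12Rβ1-IL-23R, and those of 26 host genes were -0.04, -0.03 and -0.04. The host values were small, but they were the lowest of SyCyR(IL-23R) and the 2 lowest of IL-12Rβ1-IL-23R. Member and host medians correlated at r = 0.60 over the 32 arrays, as a description. Within single lines r was 0.75 in SyCyR(IL-23R), 0.58 in SyCyR(IL-23/2A), 0.67 in IL-12Rβ1-IL-23R and -0.355 in Ba/F3-gp130. RNA had been isolated on RNeasy columns, and how much short RNA each preparation kept is unknown here. Its part in the pattern was not tested.

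The spread of the members within a line was larger in the receptor lines than in Ba/F3-gp130. The median over members of the SD across 8 arrays was 0.24 in SyCyR(IL-23R), 0.17 in SyCyR(IL-23/2A), 0.24 in IL-12Rβ1-IL-23R and 0.12 in Ba/F3-gp130. Over all probe sets with a symbol it was 0.12, 0.11, 0.13 and 0.10 in the same lines. Members thus varied most where the low arrays were, and Ba/F3-gp130 had members about as steady as other genes.

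**Figure D2:**
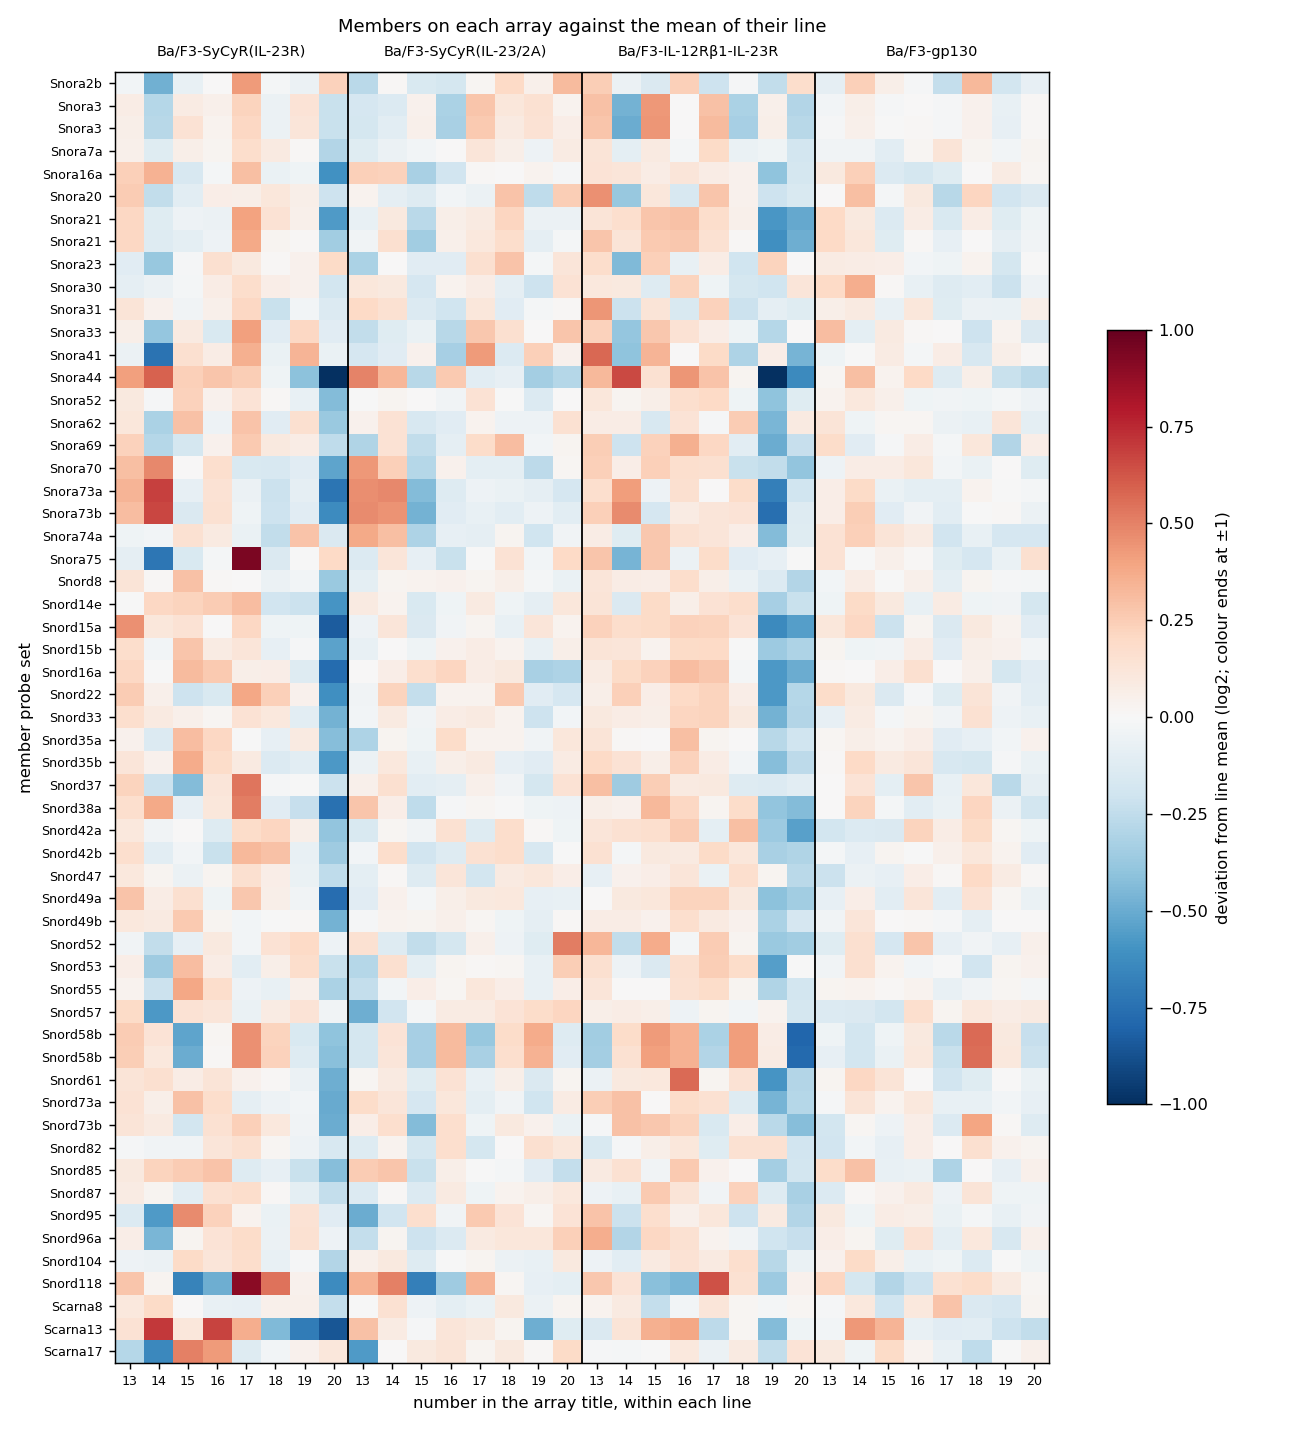
Deviation of each distinct member probe set (rows, grouped by class) from the mean of its line on each array (columns, by line and title number), in log2 units, with colours ending at 1 above or below. The blue columns at number 20 of SyCyR(IL-23R) and numbers 19 and 20 of IL-12Rβ1-IL-23R cut across Snora and Snord genes, and Ba/F3-gp130 is the palest block.

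Members from the same host gene varied together to different degrees. After removal of the line means, 10 pairs of genes within a shared host correlated over 32 arrays at a median r of 0.67, with a range of 0.04 to 0.98, and 1421 pairs with different or no hosts at a median of 0.36. Without the 3 low arrays the medians were 0.44 and 0.19 over 29 arrays. The highest value was that of Snora73a with Snora73b (0.98), 2 copies of the same H/ACA family in Snhg3, whose probes may not tell them apart. Snord15a and Snord15b in Rps3 reached 0.89 and Snora16a and Snora44 in Snhg12 0.77. Snora75 and Snord82, an H/ACA and a C/D RNA in introns of nucleolin, reached 0.04.

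SyCyR(IL-23R) cells held the most member differences from Ba/F3-gp130. Snora44, Snora73a, Snora73b and Snora74a were higher in them and Scarna17 was lower. A call required a Benjamini-Hochberg adjusted p under 0.05 in limma over all 23410 probe sets and at least 1.5-fold. By this rule 4 member probe sets were higher, and the 2 identical probe sets of Scarna17 were lower. They make up 6 of 60, where 1.52% of all probe sets were called. At the adjusted p alone 8 were higher and 10 lower, against 14.7% of all probe sets. The arrays of the 2 lines did not overlap for 6 members, against 4.73% of all probe sets. The median difference of the members was 0.03, and that of all probe sets 0.01, with members on both sides of 0. With the 3 low arrays left out 6 were called higher and 2 lower, and on even-numbered arrays alone none was higher and 5 were lower: both Scarna17 probe sets (-0.78), Snord96a (-0.74), Snord57 (-0.70) and Snord37 (-0.64). On odd-numbered arrays alone 3 were higher and 2 lower. The 4 Snora calls therefore did not pass on even numbers alone, a fit with 4 arrays per line that includes the low array number 20. Snora74a still read 9.17 to 9.50 on the even numbers of SyCyR(IL-23R), above every Ba/F3-gp130 array.

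Snora44 lay between 10.31 and 12.21 with a median of 11.86 in SyCyR(IL-23R) cells, and between 10.48 and 11.05 around a median of 10.78 in Ba/F3-gp130 cells. Only the low array number 20 of SyCyR(IL-23R) reached into the Ba/F3-gp130 values, and the other 7 lay above all of them. The difference was 0.87 ± 0.22 (SE, log2, n = 8 each), a 1.83-fold higher level with an adjusted p of 0.00502 in limma. Without the 3 low arrays it was 1.06 (adjusted p = 5.94e-07, limma). Without the arrays numbered 17 and 18 the adjusted p was 0.0597. Snora16a, which lies in the same host, was 0.40 ± 0.10 higher (adjusted p = 0.00533, limma) and stayed under 1.5-fold.

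Snora73a and Snora73b take part in an early cut of the ribosomal RNA precursor and come from introns of Snhg3. Snora73a lay between 10.68 and 12.09 with a median of 11.34 in SyCyR(IL-23R) cells, and between 10.67 and 10.96 around a median of 10.76 in Ba/F3-gp130 cells. Again 7 of 8 arrays of SyCyR(IL-23R) lay above every Ba/F3-gp130 array. The difference was 0.63 ± 0.14 (1.55-fold, adjusted p = 0.00204, limma), and without the array numbered 14, on which Snora73a was highest in all 4 lines, it was 0.56 and no longer 1.5-fold. It was 0.73 without the 3 low arrays. Snora73b differed by 0.59 ± 0.15 (1.503-fold, adjusted p = 0.00415, limma), which was just past the fold limit. It was 0.68 without the 3 low arrays, and the call was lost in 7 of 18 alternatives, among them the fits without the arrays numbered 13, 14, 16 or 17.

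Snora74a, an H/ACA RNA from an intron of Snhg4, separated the lines fully. It lay between 9.17 and 9.70 with a median of 9.38 in SyCyR(IL-23R) cells, and between 8.61 and 9.04 around a median of 8.80 in Ba/F3-gp130 cells. Every array of SyCyR(IL-23R) was above every array of Ba/F3-gp130, including its low array number 20. The difference was 0.62 ± 0.09 (1.54-fold, adjusted p = 9.76e-06, limma), and without the arrays numbered 19 it was 0.56 and no longer 1.5-fold. The difference was 0.64 without the 3 low arrays.

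Scarna17, a scaRNA, was the member furthest below Ba/F3-gp130. It lay between 10.65 and 11.80 with a median of 11.30 in SyCyR(IL-23R) cells, and between 11.84 and 12.29 around a median of 12.11 in Ba/F3-gp130 cells. The 2 lines did not overlap. The difference was -0.80 ± 0.11 (1.74-fold lower, adjusted p = 2.45e-06, limma), and the low array number 20 of SyCyR(IL-23R) was not the lowest for this gene. It was called under all 18 alternatives tried, at -0.85 to -0.71, and stood at -0.81 without the 3 low arrays. The order of the line medians was 11.30 in SyCyR(IL-23R), 11.74 in SyCyR(IL-23/2A), 11.87 in IL-12Rβ1-IL-23R and 12.11 in Ba/F3-gp130. SyCyR(IL-23/2A) was lower than Ba/F3-gp130 by 0.41 (adjusted p = 0.0191, limma) and SyCyR(IL-23R) was lower than SyCyR(IL-23/2A) by 0.38 (adjusted p = 0.026, limma), neither past 1.5-fold. Scarna8 and Scarna13 passed no line comparison. Scarna13, within the non-coding Snhg10, ranged from 9.88 to 11.45 around a median of 10.87 in SyCyR(IL-23R) cells, and from 10.89 to 11.57 around a median of 11.05 in Ba/F3-gp130 cells, with overlap.

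**Figure D3:**
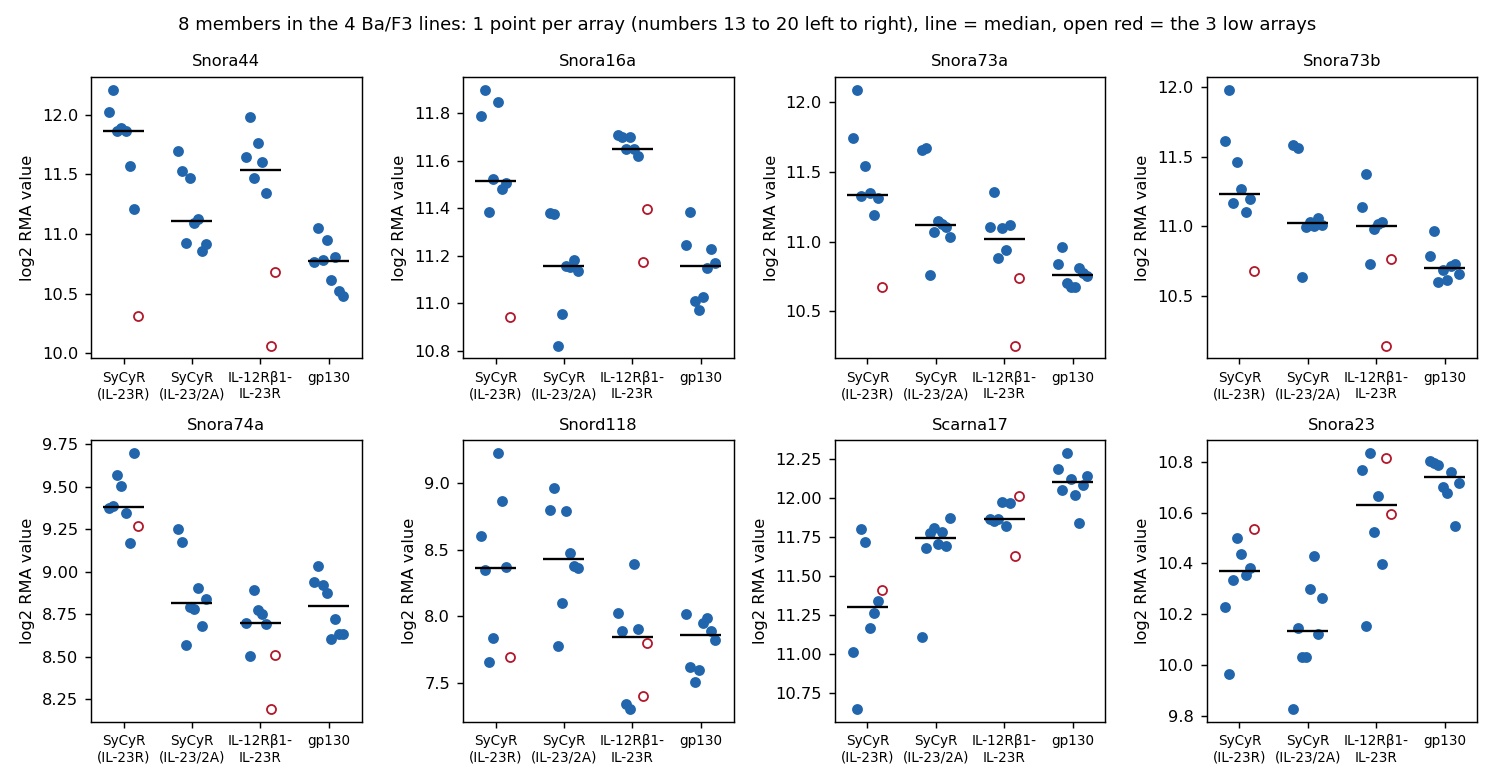
Log2 RMA values (vertical axis) of 8 members in the 4 lines (horizontal axis), with 1 point per array in the order of the title numbers, a bar at the median and the 3 low arrays as open red circles. Snora74a and Scarna17 show no overlap between SyCyR(IL-23R) and Ba/F3-gp130, and for Snora44 and Snora73a a single open circle of SyCyR(IL-23R) reaches the Ba/F3-gp130 values.

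Below 1.5-fold, SyCyR(IL-23R) cells differed from Ba/F3-gp130 in further guides. Snord96a and Snord95, box C/D RNAs in introns of Rack1, were lower by 0.55 ± 0.09 (adjusted p = 2.23e-05) and 0.43 ± 0.11 (adjusted p = 0.0037, limma). Snord57, a box C/D guide within Nop56, which itself encodes a core protein of box C/D particles, was lower by 0.54 ± 0.09 (adjusted p = 3.69e-05, limma), while Nop56 differed by 0.05 (adjusted p = 0.707). Snord37 (host Eef2) was lower by 0.45, and Snord73a (host Rps3a1) was higher by 0.41. Snora23 lay between 9.96 and 10.54 with a median of 10.37 in SyCyR(IL-23R) cells, and between 10.55 and 10.80 around a median of 10.74 in Ba/F3-gp130 cells. The difference was -0.38 ± 0.09 (adjusted p = 0.00156, limma), and its host Ipo7, an import receptor, was lower by 0.23 (adjusted p = 0.000393, limma). These members were named after their values had been seen.

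In SyCyR(IL-23/2A) cells, Snord118 was the gene called against Ba/F3-gp130. Snord118 is a box C/D RNA needed to release the large-subunit ribosomal RNAs from their precursor. It lay between 7.77 and 8.96 with a median of 8.43 in SyCyR(IL-23/2A) cells, and between 7.51 and 8.02 around a median of 7.85 in Ba/F3-gp130 cells. The 2 lines overlapped through number 15 of SyCyR(IL-23/2A), at 7.77. The difference was 0.66 ± 0.19 (1.58-fold, adjusted p = 0.0291, limma, n = 8 each), and it missed the adjusted p without the arrays numbered 13 (0.0834), 14 (0.139), 19 (0.0555) or 20 (0.0503). The call was lost in 7 of 18 alternatives. With the title number as a block it held (adjusted p = 0.000241, limma), although the numbers were not taken to pair Ba/F3-gp130. The 2 identical probe sets of Snord118 were the only members called, none was lower, and 0.56% of all probe sets were called. At the adjusted p alone 3 members were higher and 5 lower, against 6.23% of all probe sets. Snora23 was the largest decrease that stayed below the fold limit, at -0.58 ± 0.09 (adjusted p = 2.4e-05, limma), with all 8 arrays of SyCyR(IL-23/2A) (9.83 to 10.43) below the Ba/F3-gp130 range given above. Its host Ipo7 was lower by 0.21 (adjusted p = 0.00261, limma). Snord96a was lower by 0.42, Snora20 (host Tcp1) lower by 0.38 and Snord73a higher by 0.36. The lines did not overlap for 3 members, Snora23, Snord73a and Snord96a, against 2.4% of all probe sets.

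In IL-12Rβ1-IL-23R cells no member was called against Ba/F3-gp130, where 2.91% of all probe sets were called. At the adjusted p alone Snora16a was higher by 0.43 ± 0.10 (adjusted p = 0.00203) and Snord96a and Snord14e were lower by 0.35 and 0.29 (adjusted p = 0.00322 and 0.028, limma), against 17.9% of all probe sets, and 9 members had an unadjusted p under 0.05. The lines overlapped for every member, while 6.43% of all probe sets did not overlap. Once the 3 low arrays were left out, 5 members were higher and 1 lower at the adjusted p alone. Snora16a lay between 11.17 and 11.71 with a median of 11.65 in IL-12Rβ1-IL-23R cells, and between 10.97 and 11.38 around a median of 11.16 in Ba/F3-gp130 cells. Its 7 arrays other than number 19 lay above every Ba/F3-gp130 array, and the low arrays numbered 19 and 20 held its 2 lowest values (11.17 and 11.40). The result for Snora44 turned on the same arrays. It lay between 10.07 and 11.98 with a median of 11.54 in IL-12Rβ1-IL-23R cells and differed from Ba/F3-gp130 by 0.57, which was not called, whereas without the 3 low arrays the difference was 0.89 and was called (adjusted p = 9.89e-06, limma). Leaving out the arrays numbered 19 or those numbered 20 also gave this call. Numbers 19 and 20 held the 2 lowest values of Snora44 in this line. The fit without the 3 low arrays therefore describes Snora44 and tests nothing. The 3 lines were all set against the same Ba/F3-gp130 arrays, so their differences are not independent of each other.

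Between the receptor lines, Snord118 was again the called gene in SyCyR(IL-23/2A) cells against IL-12Rβ1-IL-23R cells. It lay between 7.77 and 8.96 in SyCyR(IL-23/2A) cells and between 7.30 and 8.39 with a median of 7.84 in IL-12Rβ1-IL-23R cells. The difference was 0.70 ± 0.19 (1.62-fold, adjusted p = 0.00637, limma). It was the called gene among 2.62% of all probe sets, and at the adjusted p alone 4 probe sets were higher and 5 lower, against 18.4%. Snord14e, a box C/D RNA of the family required for small-subunit ribosomal RNA processing and hosted by Hspa8, was higher by 0.39 ± 0.10 (adjusted p = 0.00284, limma), and it was the member for which the lines did not overlap, against 5.72% of all probe sets. The low arrays of IL-12Rβ1-IL-23R held its lowest values (11.33 and 11.44). The 5 lower members were all H/ACA RNAs: Snora75, Snora23, Snora16a, Snora33 and Snora7a, at -0.55, -0.45, -0.43, -0.30 and -0.16. With the title number as a block, 14 members passed the adjusted p in place of 9, and the calls were the same in number. Snord118 stood at 0.65 without the 3 low arrays (adjusted p = 0.0215, limma), and at the adjusted p alone 4 probe sets were higher and 9 lower. Positive differences then numbered 22 of 60, where they were 35 with all arrays.

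SyCyR(IL-23R) and SyCyR(IL-23/2A) cells differed in no member by the call rule, where 1.05% of all probe sets were called, and 15 members had an unadjusted p under 0.05. At the adjusted p alone Snora74a was higher in SyCyR(IL-23R) by 0.54 ± 0.09 (adjusted p = 0.000136) and Snora16a by 0.40 ± 0.10 (adjusted p = 0.0089), and Scarna17 and Snord57 were lower by 0.38 and 0.31 (adjusted p = 0.026 and 0.0255, limma), against 7.74% of all probe sets. The lines overlapped for every member, while 2.0% of all probe sets did not. With the title number as a block 8 members passed in place of 5. Without the 3 low arrays Snora44 was called, at 0.60 (adjusted p = 0.00252, limma), and 4 probe sets were higher and 3 lower at the adjusted p alone. Without the arrays numbered 13 or those numbered 14 Snora74a was called, at 0.60 and 0.59. Of 23 Snora probe sets 20 had a positive difference with a median of 0.14, against 14 of 33 Snord probe sets with a median of -0.02.

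RNAs that take part in cutting the ribosomal RNA precursor were also read as a list, of which 5 genes were measured. In SyCyR(IL-23R) against Ba/F3-gp130, Snora73a and Snora73b were called, and Snord22 passed the adjusted p at 0.32 (0.0499, limma). Snord118 was at 0.53 ± 0.19 (adjusted p = 0.0545, limma) and Snord14e at 0.07. The median difference over the list was 0.53, which is the value of Snord118 itself, and that over all probe sets 0.01. Snora73a and Snora73b, whose probes may not tell them apart, make up 2 of the 5 genes. Snord118 was called without the 3 low arrays, at 0.62 (adjusted p = 0.0236, limma). The values of Snord118 followed the title number in more than 1 line. Numbers 15 and 16 held its 2 lowest values in SyCyR(IL-23/2A) (7.77 and 8.10), IL-12Rβ1-IL-23R (7.33 and 7.30) and Ba/F3-gp130 (7.51 and 7.59), and in SyCyR(IL-23R) they were at 7.66 and 7.84, with number 20 at 7.70. Number 17 held the highest in SyCyR(IL-23R) (9.23) and IL-12Rβ1-IL-23R (8.39).

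The proteins that bind, assemble and trim these RNAs held few calls. Of 4 measured box C/D proteins and 4 box H/ACA proteins, none was called in any of the 5 line comparisons. Among 9 assembly factors and 8 Cajal body and nucleolar proteins none was called either. At the adjusted p alone, 5 of the 8 Cajal body and nucleolar proteins were lower in IL-12Rβ1-IL-23R cells when set against Ba/F3-gp130 cells, with a median of -0.18 over the list, where 17.9% of all probe sets passed in either direction. Of 10 cap, tail and decay factors 1 was called, as a decrease in IL-12Rβ1-IL-23R against Ba/F3-gp130. This was Ncbp2, the small subunit of the nuclear cap-binding complex, at -0.62 (adjusted p = 8.35e-10, limma). Tgs1, which adds the hypermethylated cap to RNAs such as Snord118, was 0.40 lower in SyCyR(IL-23/2A) cells when set against Ba/F3-gp130 cells (adjusted p = 0.00219, limma), below the fold limit. Of 7 measured non-coding host genes Snhg5 passed the adjusted p, at -0.51 in SyCyR(IL-23/2A) (adjusted p = 0.00794) and -0.38 in SyCyR(IL-23R) (adjusted p = 0.0322, limma), each against Ba/F3-gp130. Among the 12 other abundant small RNAs, none was called in SyCyR(IL-23R) against Ba/F3-gp130, and Rny1, Rny3 and the vault RNA Vaultrc5 were higher by 0.35, 0.33 and 0.44 (adjusted p = 0.0214, 0.0155 and 0.0157, limma). Of 305 microRNA probe sets 6 were called lower and none higher in the same comparison, a share close to the 1.52% of all probe sets. Snhg12, Snhg3 and Snhg4 were not measured as genes of their own here.

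Host genes with a probe set, 26 of them for 30 member genes, showed no call in any line comparison. Member and host differed in the same direction in 10 of 30 pairs for SyCyR(IL-23R) against Ba/F3-gp130, in 18 for SyCyR(IL-23/2A) and in 22 for IL-12Rβ1-IL-23R. Across these pairs the 2 differences correlated at r = -0.03, 0.14 and 0.19, as a description over genes that are not independent. Many hosts encode ribosomal proteins with close copies elsewhere in the genome. The probe set used for such a host may therefore read a copy in addition to the host or in place of it. Snord87 was paired with Mcmdc2, whose mean was only 4.83. The signs and correlations of these pairs thus do not show how members follow the transcripts they are cut from.

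The title numbers were also compared as odd against even within each line. The labels give this parity no meaning. In SyCyR(IL-23R), 59 of 60 members were higher on odd numbers, with a median difference of 0.17, where the median of all probe sets was below 0.01 in size. No member was called, where 0.137% of all probe sets were, and 12 members had an unadjusted p under 0.05. Without the 3 low arrays, 42 members were higher and the median was 0.08. Snora62 (host Rpsa) was the member past the adjusted p, against 0.175% of all probe sets. It read 9.44, 9.62, 9.61 and 9.49 on odd numbers and 9.01, 9.28, 9.21 and 8.95 on even numbers of SyCyR(IL-23R). The 2 sets did not overlap, and the difference was 0.43 ± 0.09 (adjusted p = 0.0227, limma, n = 4 each). Such separation was seen for 4 members, against 1.76% of all probe sets.

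In IL-12Rβ1-IL-23R, the H/ACA RNAs Snora41, Snora3 and Snora31 were higher on odd numbers. Snora41 (host Eef1b2) read 7.60, 7.36, 7.21 and 7.09 on odd numbers and 6.62, 7.02, 6.71 and 6.55 on even numbers. It was the member called, at 0.59 ± 0.14 (1.503-fold, adjusted p = 0.011, limma, n = 4 each), where 0.991% of all probe sets were called. This call was lost in 7 of 14 alternatives, among them the fits without the arrays numbered 13, 14, 15, 18 or 20. Snora3 (host Rpl27a) read 10.32, 10.49, 10.37 and 10.11 on odd numbers and 9.55, 10.05, 9.72 and 9.77 on even numbers in 1 of its 2 probe sets. Its difference was 0.55 ± 0.10 (adjusted p = 0.000416, limma), just under 1.5-fold, and without the 3 low arrays it was called at 0.62. Snora31 (host Tpt1) was higher on odd numbers by 0.35 (adjusted p = 0.0244, limma). At the adjusted p alone, these 4 probe sets passed and no member was lower, against 3.12% of all probe sets. The hosts Eef1b2, Rpl27a and Tpt1 differed by -0.05, -0.01 and -0.03 (adjusted p = 0.501, 0.931 and 0.766). Odd and even arrays did not overlap for 6 members, against 7.98% of all probe sets.

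**Figure D4:**
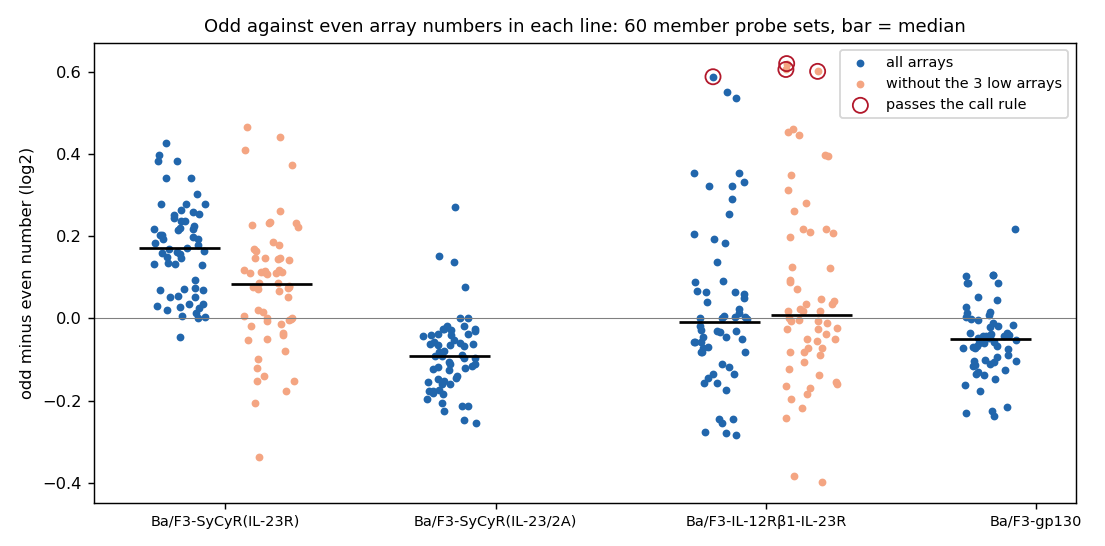
Odd minus even difference (log2, vertical axis) of the 60 member probe sets in each line (horizontal axis), with bars at the medians, orange points for the fit without the 3 low arrays and red rings for members past the call rule. The cloud of SyCyR(IL-23R) lies above 0 with a median of 0.17 that becomes 0.08 without the low arrays, and the ring among all arrays of IL-12Rβ1-IL-23R is Snora41 at 0.59.

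On the arrays of SyCyR(IL-23/2A), as on those of Ba/F3-gp130, the members leaned the other way. In SyCyR(IL-23/2A), 6 of 60 were higher on odd numbers, with a median of -0.09. Of the members in Ba/F3-gp130, 14 were higher on odd numbers, with a median of -0.05. No member was called in either line, at backgrounds of 0.487% and 0.0%, and none had an unadjusted p under 0.05. Odd and even arrays did not overlap for 2 members in SyCyR(IL-23/2A), against 5.06% of all probe sets, and for 3 in Ba/F3-gp130, against 1.26%. The difference between lines was tested for each member as an interaction. Snora3 differed between IL-12Rβ1-IL-23R cells and Ba/F3-gp130 cells in both of its probe sets, which read nearly alike. The differences were 0.60 (adjusted p = 0.0179) and 0.61 (adjusted p = 0.0148, limma), where 0.889% of all probe sets passed. In Ba/F3-gp130 Snora3 read 10.06, 10.07, 10.06 and 9.99 on odd numbers and 10.12, 10.08, 10.12 and 10.09 on even numbers, in 1 of its 2 probe sets. No member passed in the other 4 pairs of lines tested, in which 0 to 8 members had an unadjusted p under 0.05. All probe sets passed there at 0.094% for SyCyR(IL-23R) and 0.32% for SyCyR(IL-23/2A) against Ba/F3-gp130, 0.103% for SyCyR(IL-23/2A) against IL-12Rβ1-IL-23R and 0.0769% for SyCyR(IL-23R) against SyCyR(IL-23/2A).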

How the data were processed

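The deposited log2 values had been made by the authors from 32 Mouse Gene ST 1.0 arrays with Affymetrix Expression Console (robust multi-array average, RMA, with sketch-quantile normalization; version not given in the sources used here). They were used as deposited. RNA had a RIN above 8, and 150 ng per sample entered the Ambion WT Expression Kit. Genes were named through the platform annotation. Lines were compared in limma 3.58.1 (R 4.3.3) with 1 mean per line (8 arrays each), and odd with even numbers in a fit of 8 groups of line and parity (4 arrays each), and p-values were adjusted by Benjamini-Hochberg over 23410 probe sets with a symbol. A call also needed 1.5-fold. Alternatives changed the probe sets tested, the fold limit, the moderation, the centring and the arrays used, and added the number as a block. The fit was tested on simulated data. Figures were drawn in Python 3.11.15.

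Named members were up to 5 called ones with the largest difference per line comparison, up to 3 per odd against even comparison, the 6 with the highest mean, the 6 with the widest range and the Scarna genes, with their hosts. Members named otherwise, past the adjusted p only or for their deficit on the low arrays, were chosen after their values were seen. All members and lists were chosen with earlier results of these data known. The study describes 4 independent biological replicates, but the labels do not tie them to arrays, so the p-values reflect only how these samples vary, which may be technical, and the number of arrays limits the precision. Slide and scan date were not used here. Same-numbered arrays deviated together between the receptor lines (lowest r per pair of lines 0.189 to 0.342, median r 0.325 to 0.434). With Ba/F3-gp130 they did so less and not for every number (lowest r -0.037 to -0.002, median r 0.215 to 0.265). Pairing was accepted where every r exceeded 0.1, so that the numbers were taken to pair only the receptor lines. A result that needs a withheld item is not reported here.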

Additional observations from a re-analysis of the deposited data

Results flagged for a closer look

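Among the named members and the member median, 68 sets of 8 arrays of 1 line were examined for an array far from the others of its line, and 10 were found. Chance sets apart about 1 in 20 such groups when they are independent. These sets were not independent, since several share an array and some members were named for their wide range. The count is therefore a description only. SyCyR(IL-23R) held most of them. On its number 20 the median of all members lay at -0.363 from the line mean, against -0.0286 to 0.1746 on its other arrays. The same array was low for Snora52 at 12.293 (others 12.651 to 12.952), Snord16a at 11.959 (others 12.598 to 13.046), Snord33 at 12.395 (others 12.767 to 13.037) and Snord49b at 12.492 (others 12.937 to 13.226). Number 14 of that line was low for Snora41 at 6.189 (others 6.863 to 7.282) and for Snord57 at 11.782 (others 12.287 to 12.548). In SyCyR(IL-23/2A), Scarna17 was low on number 13 at 11.114 (others 11.682 to 11.875) and Snord33 on number 19 at 12.628 (others 12.797 to 12.926). In IL-12Rβ1-IL-23R, Scarna8 was low on number 15 at 6.985 (others 7.195 to 7.347).

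The odd minus even difference of Snora3 was greater in IL-12Rβ1-IL-23R cells, set against Ba/F3-gp130 cells, by 0.596 (adjusted p = 0.0179) and 0.6075 (adjusted p = 0.0148, limma interaction) in its 2 probe sets.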

How the results depend on the processing

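With no fold limit, called members numbered 18 for SyCyR(IL-23R), 8 for SyCyR(IL-23/2A) and 3 for IL-12Rβ1-IL-23R against Ba/F3-gp130, 9 for SyCyR(IL-23/2A) against IL-12Rβ1-IL-23R, 5 for SyCyR(IL-23R) against SyCyR(IL-23/2A), and 1 and 4 for odd against even in SyCyR(IL-23R) and IL-12Rβ1-IL-23R. Without the 3 low arrays, an alternative chosen after seeing the data, they were 8 for SyCyR(IL-23R) and 1 for IL-12Rβ1-IL-23R against Ba/F3-gp130, 1 for SyCyR(IL-23R) against SyCyR(IL-23/2A) and 3 for odd against even in IL-12Rβ1-IL-23R. SyCyR(IL-23/2A) against Ba/F3-gp130 held 1 with each array centred on its median, 1 on odd arrays alone (Snora23, at -0.63, in place of Snord118) and 0 on even arrays alone. SyCyR(IL-23R) against SyCyR(IL-23/2A) held 1 on odd arrays alone. Odd against even in IL-12Rβ1-IL-23R held 0 with probe sets above the median mean, with centring, and without the arrays numbered 17 and 18. Leaving out 1 number at a time gave 4 to 8 calls for SyCyR(IL-23R), 0 to 3 for SyCyR(IL-23/2A) and 0 to 1 for IL-12Rβ1-IL-23R against Ba/F3-gp130, 2 to 3 and 0 to 1 for the other line comparisons, and 0 to 3 for odd against even in IL-12Rβ1-IL-23R. The causes were not tested. No named member reversed its direction. With the replicate block, calls were 6, 2 and 0 against Ba/F3-gp130 in the same order of lines and 2 and 0 between receptor lines, the same counts as without it, and members past the adjusted p alone against Ba/F3-gp130 were 23, 13 and 5.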
